A study of Mus musculus with 6 samples.

Results

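Ion channel genes were examined in mouse hepatocytes that had received either Sox4 or an empty vector, to ask how many gain or lose expression when Sox4 is delivered. Members were chosen by gene symbol alone. Of 53599 symbols in the count table, 173 matched the naming patterns of 6 families: 92 potassium channel genes (Kcn), 14 voltage-gated sodium channel genes (Scn, with 10 pore subunits and 4 beta subunits), 26 voltage-gated calcium channel genes (Cacn, with 10 pore subunits and 16 auxiliary subunits), 22 transient receptor potential genes (Trpa, Trpc, Trpm and Trpv), 9 CLC genes (Clcn) and 10 anoctamin genes (Ano). A count in at least 1 library was found for 113 of the 173, and 27 passed the expression filter and were tested.

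Ion channels are membrane proteins that let selected ions cross a membrane down their gradient. In the liver, potassium channels set the membrane voltage that drives uptake and secretion, and chloride and anoctamin channels serve bile and volume regulation. Many TRP channels admit calcium or magnesium in response to stretch, heat, lipids or calcium itself. Several carry a pore of their own, whereas others are auxiliary subunits that alter the gating or surface delivery of a pore encoded elsewhere. CLC proteins include plasma membrane chloride channels and chloride-proton exchangers of endosomes and lysosomes, and some anoctamins are phospholipid scramblases.

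The EV group (3 mice, genotype given as WT in the labels) received AAV8-TBG-Cre, and the Sox4 group (3 mice, genotype given as Sox4) received AAV8-TBG-HA-Sox4-P2A-Cre, so Cre was delivered in both. Per the study, its mice carried a Cre-dependent Cas9-EGFP allele at Rosa26 on a C57BL/6J background, were several weeks old when injected into the retro-orbital vein, and were male. The TBG promoter is active in hepatocytes and not in most other liver cells. Cells were harvested 4 days post injection by liberase digestion and Percoll enrichment, which is not a sort, so other liver cells could remain. In bulk RNA, fewer cells of a type and less RNA per cell cannot be told apart.

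Libraries held 15090629 to 16964860 counts. Sox4 itself had 2, 0 and 3 counts in the EV libraries and 21697, 15097 and 11816 in the Sox4 libraries. All 10 hepatocyte markers were tested, with 7 lower in Sox4, and their summed level ranged from 123026 to 146699 in EV libraries and from 85318 to 98620 CPM in Sox4 libraries (CPM, counts per 1000000, on library sizes scaled with the TMM method of edgeR). This scaling made the Sox4 libraries 1.48 times the size of the EV libraries, against 1.07 times by total count, so equal CPM corresponds to a higher count in Sox4. Summed markers of other cells were also measured. Stellate markers were 10.8 to 49.7 CPM in EV and reached 92.5 to 149 in Sox4, with 3 of 5 tested markers higher. Cholangiocyte markers were 28.3 to 44.0 and 74.3 to 87.2 CPM, with 2 of 5 tested markers higher. Krt7, Krt19 and Tspan8 had no count in any EV library, so the EV sum came from the other markers on that list. Kupffer markers were 13.4 to 28.8 and 29.1 to 67.9 CPM, with 4 of 9 higher, and endothelial markers were 26.1 to 43.1 and 26.9 to 56.5 CPM, with 3 of 10 higher and 1 lower. Smooth muscle markers reached at most 0.231 CPM in EV and 0.709 CPM in Sox4, with no marker tested and Myocd at 0 throughout, and erythroid markers were at 93.0 to 126 in EV against 4.97 to 15.5 CPM in Sox4. Nerve markers were 0.925 to 2.66 and 1.89 to 2.79 CPM, with Sox10, Tubb3, Snap25, Elavl3 and Stmn2 at 0 in every library, and immune markers were 0.771 to 2.28 and 1.40 to 4.50 CPM. The part of other cell types in the results that follow was not tested.

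More of the tested ion channel genes were higher than lower in Sox4 hepatocytes. Of the 27 tested, 14 were higher, 4 were lower and 9 did not pass the threshold, an adjusted p of 0.05 in the edgeR quasi-likelihood test with Benjamini-Hochberg adjustment over all genes tested. Among all 12691 genes tested, 29.0% were higher and 26.0% were lower, 55.1% in all. Of the 27, 11 were higher and 4 were lower by at least 2-fold, and 16.5% and 11.9% of all tested genes were. The CPM ranges did not overlap for 14 genes with Sox4 above EV and 5 with Sox4 below it, and the corresponding shares of all tested genes were 33.1% and 29.9%. The 4 lower genes all encode potassium channels, whereas the higher genes came from several families. The median log2 fold change of the tested ion channel genes was 0.55, against 0.04 for all tested genes, and it was the same with the genes at the EV floor set to their bounds. Scaling by total count alone moved these medians to 1.02 and 0.51. Trpv4, Ano3, Cacnb3, Kcnj8 and Kcnk16, at 3 counts or fewer in every EV library, passed the filter only through the Sox4 libraries. Such genes could hardly be called lower, so the counts above and the median of 0.55 depend in part on the filter. With a mean count of at least 50 instead, 17 genes were tested, of which 7 were higher and 5 lower, with a median of 0.15.

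The ion channel genes took a larger share of the reads in Sox4. Together they held 5332, 5683 and 6298 counts in the EV libraries and 10860, 11345 and 11118 in the Sox4 libraries, or 0.0353% to 0.0388% and 0.0640% to 0.0680% of all counts. Their summed level was 433 ± 23.3 CPM (SD, n = 3) for EV and 562 ± 17.6 CPM (SD, n = 3) for Sox4, and the groups did not overlap. The number of ion channel genes with at least 1 count was 42, 54 and 55 in EV and 76, 83 and 88 in Sox4. Among all genes, 17025 to 17525 had a count in the EV libraries and 19049 to 19515 in the Sox4 libraries. Anoctamins went from a summed 32.7 to 122 CPM, TRP genes from 58.1 to 86.1 CPM and CLC genes from 242 to 288 CPM, while the potassium channel genes together went from 89.3 to 44.9 CPM. These sums over families are descriptions and were not tested as sets.

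**Figure D1:**
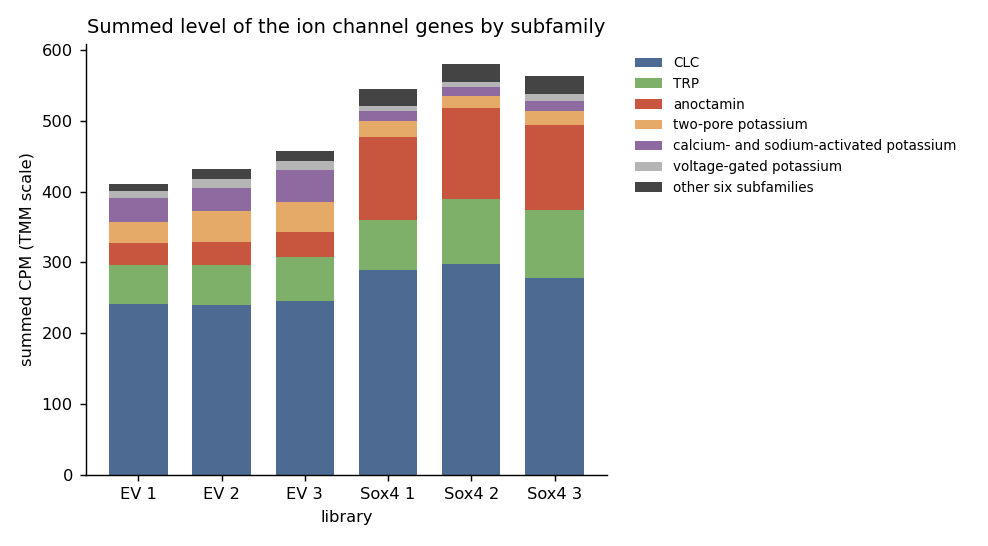
Summed level of the ion channel genes in each of the 6 libraries, as stacked bars in CPM on TMM-scaled library sizes, with colours for subfamilies. CLC genes were the largest layer in every library, the anoctamin layer averaged 32.7 CPM over EV and 122 CPM over Sox4 libraries, and the potassium layers together were thinner in Sox4.

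Expression was gained at 11 ion channel genes and lost at none, where a gain means at most 3 counts in every EV library and more than 3 in every Sox4 library, and a loss the reverse. These 11 were 9.73% of the 113 ion channel genes with a count. The background was 3.25% for gains and 0.333% for losses among the 24036 genes with a count. They comprised Trpv4 and Trpm8, Ano3 and Ano1, Cacnb3, Cacna1b and Cacna1c, Kcnk16, Kcnj8 and Kcnu1, and Scn3b, so each family but the CLC genes contributed at least 1. Only 5 of them, Trpv4, Ano3, Cacnb3, Kcnj8 and Kcnk16, passed the expression filter and were tested.

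**Figure D2:**
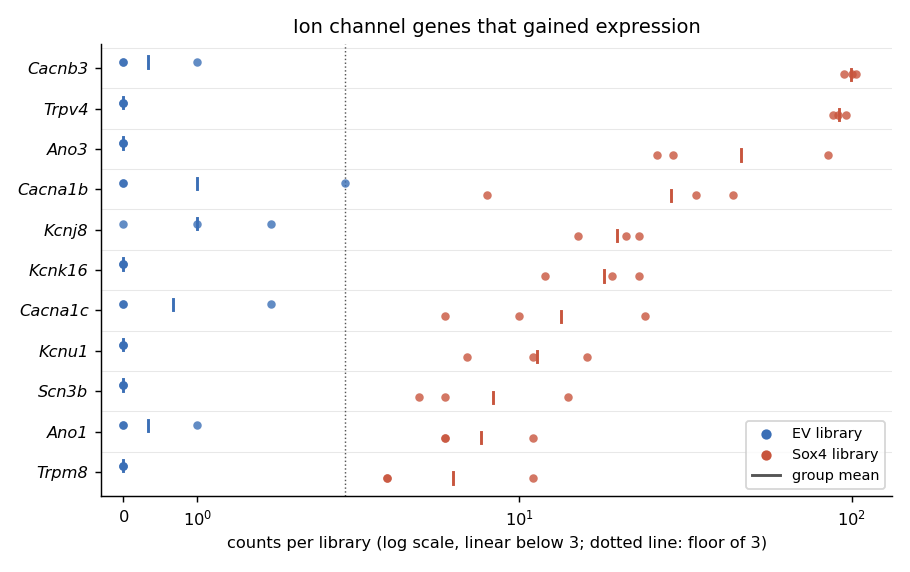
Counts per library of the 11 ion channel genes that gained expression, on a log scale that is linear below 3, with points for libraries, short bars for group means and a dotted line at the floor of 3 counts. No EV point lies above the line, and the Sox4 libraries lie between 4 and 103 counts, with Trpv4 and Cacnb3 near 100 in all 3.

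Promoters of 4 of the 5 tested genes that gained expression are shown, with that of Kcnk5, a lowered gene whose chromosome neighbour Kcnk16 was raised. The window of Kcnj8, the other tested gene of that kind, held neither motif searched and is not printed. Each window holds the 250 bases before a RefSeq transcription start in GRCm38.p6, read 5′ to 3′ on the gene's strand, from the RefSeq promoter table. Capitals mark ACAAAG or ACAATG on either strand (CTTTGT and CATTGT when read from the other strand), core letters that SOX factors are known to bind. These genes and motifs were picked after expression values had been seen.
Trpv4, chr5:114658422-114658671, minus strand: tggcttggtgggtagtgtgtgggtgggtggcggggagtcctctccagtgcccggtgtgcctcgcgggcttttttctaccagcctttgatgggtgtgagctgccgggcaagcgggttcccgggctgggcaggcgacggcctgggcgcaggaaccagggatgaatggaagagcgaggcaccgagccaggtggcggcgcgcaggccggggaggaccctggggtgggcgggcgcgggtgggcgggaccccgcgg
Cacnb3, chr15:98632078-98632327, plus strand: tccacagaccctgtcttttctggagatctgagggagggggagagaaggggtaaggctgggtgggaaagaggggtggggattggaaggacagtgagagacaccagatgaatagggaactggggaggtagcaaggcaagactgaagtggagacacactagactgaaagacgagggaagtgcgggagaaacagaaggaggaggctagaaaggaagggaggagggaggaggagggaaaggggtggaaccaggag
Cacnb3, chr15:98634517-98634766, plus strand: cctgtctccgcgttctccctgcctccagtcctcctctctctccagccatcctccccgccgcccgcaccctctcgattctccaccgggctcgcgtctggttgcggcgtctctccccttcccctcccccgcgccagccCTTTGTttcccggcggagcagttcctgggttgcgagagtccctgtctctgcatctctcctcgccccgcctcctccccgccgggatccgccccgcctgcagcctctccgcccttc
Ano3, chr2:110840060-110840309, minus strand: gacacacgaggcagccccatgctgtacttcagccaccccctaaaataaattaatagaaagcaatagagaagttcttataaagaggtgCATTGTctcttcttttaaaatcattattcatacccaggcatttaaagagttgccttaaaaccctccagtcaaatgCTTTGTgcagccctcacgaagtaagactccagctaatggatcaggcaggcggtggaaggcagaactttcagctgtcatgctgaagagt
Kcnk16, chr14:20269270-20269519, minus strand: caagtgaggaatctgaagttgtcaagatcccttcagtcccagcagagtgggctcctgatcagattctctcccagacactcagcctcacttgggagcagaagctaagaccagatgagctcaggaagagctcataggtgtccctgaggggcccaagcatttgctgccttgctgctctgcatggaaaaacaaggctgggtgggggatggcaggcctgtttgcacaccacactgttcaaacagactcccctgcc
Kcnk5, chr14:20181783-20182032, minus strand: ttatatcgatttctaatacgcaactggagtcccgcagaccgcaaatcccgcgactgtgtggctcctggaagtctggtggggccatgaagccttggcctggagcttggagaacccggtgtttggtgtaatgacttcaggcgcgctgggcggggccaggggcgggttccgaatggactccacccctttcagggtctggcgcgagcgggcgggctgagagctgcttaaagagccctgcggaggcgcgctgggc

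Of 2 Ano3 starts in the table, the window shown belongs to the downstream start and held both motifs on the other strand, ACAAAG 88 bases and ACAATG 163 bases before the start, while the window of the upstream start held neither. In Cacnb3, with 2 starts as well, the window of the downstream start held ACAAAG on the other strand 114 bases before the start and the other window held neither. No capitals occur in the Trpv4, Kcnk16 and Kcnk5 windows, which says only that these letters are not in these 250 bases. Among all 32851 RefSeq windows of this length, 16.5% held ACAAAG and 10.7% held ACAATG, and among the 178 windows of 131 ion channel genes, 12.9% and 7.30% did. For the higher ion channel genes, 10 were in the table with 14 windows, of which 3 held ACAAAG and 2 held ACAATG. For the lower genes, 2 were in the table with 3 windows, and none held either. These counts rest on few windows, and a match of letters is a description and not a site.

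Among TRP genes, all 3 that were tested were higher, against 29.0% of all tested genes. Trpv4 and Trpm4 met the minimum count of the filter only in the Sox4 libraries, so they could hardly be called lower. Trpv4 encodes a channel opened by osmotic swelling, warmth and lipid mediators and found on the cilia of bile duct cells. It had 0, 0 and 0 counts in the EV libraries and 88, 96 and 91 in the Sox4 libraries. Its level of 4.64 ± 0.248 CPM (SD, n = 3) in Sox4 was at least 20.6-fold higher than the floor of 3 counts per EV library (adjusted p = 2.2e-05, edgeR). The groups were fully apart and the Sox4 libraries lay close to each other. The cholangiocyte marker sum was 28.3 CPM or more in every EV library, but Krt7, Krt19 and Tspan8 had no count there. This sum alone therefore does not show that bile duct cells were present in EV. The part of such cells in the rise of Trpv4 was not tested.

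Trpm4, a calcium-activated channel that carries sodium rather than calcium, had 9, 5 and 3 counts in EV and 74, 58 and 128 in Sox4. Every Sox4 library was above every EV library, with a log2 fold change of 3.34 ± 0.49 (SE) and an adjusted p of 0.00032 (edgeR). Trpm7, a magnesium and zinc channel fused to a kinase and expressed in most cells, had 689, 720 and 832 counts in EV and 1206, 1584 and 1549 in Sox4. In CPM the EV libraries reached 60.42 and the lowest Sox4 library was at 60.45, so the groups touched, and the log2 fold change of 0.39 ± 0.14 (SE) was near the threshold (adjusted p = 0.032, edgeR). Leaving out 1 library ended the call for Trpm7 in 4 of 6 cases, with an adjusted p of up to 0.12. Trpm8, the menthol and cold receptor, had 0, 0 and 0 counts in EV and 4, 11 and 4 in Sox4, too few to be tested, and the Sox4 mean was at least 1.43-fold higher than the EV floor. Of the 22 TRP genes, 8 had no count in any library.

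All 4 anoctamins that were tested were higher in Sox4, each by more than 2-fold, and all 10 anoctamin genes had a count in some library. Among all tested genes, 29.0% were higher and 16.5% were higher by at least 2-fold. Ano3 passed the filter only through the Sox4 libraries, while Ano10, Ano8 and Ano6 were above its minimum count in both groups. Ano10, an endoplasmic reticulum member linked to calcium signalling, had 268, 307 and 336 counts in EV and 1351, 1578 and 1321 in Sox4. Its level rose from 22.8 ± 1.93 to 71.8 ± 7.67 CPM (SD, n = 3), a log2 fold change of 1.65 (SE = 0.11, edgeR adjusted p = 5.9e-06). Per length, in FPKM (CPM per kilobase of exon) computed from GENCODE exon lengths, Ano10 went from 3.86 ± 0.326 to 12.1 ± 1.30 (SD, n = 3), from the sixth place among ion channel genes in EV to the first in Sox4. Clcn2, the next in Sox4, was at 11.5 ± 3.70 FPKM, and the 2 ranges overlapped.

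Ano8, which tethers the endoplasmic reticulum to the plasma membrane, had 91, 72 and 76 counts in EV and 640, 448 and 533 in Sox4. Its log2 fold change was 2.19 ± 0.18 (SE; adjusted p = 9.5e-06, edgeR), and no library of one group reached the other. Ano6, a calcium-activated scramblase that exposes phosphatidylserine and also passes ions, had 44, 48 and 62 counts in EV and 308, 450 and 421 in Sox4. The log2 fold change was 2.37 ± 0.21 (SE), with an adjusted p of 1.4e-05 (edgeR), from 3.85 ± 0.583 to 19.9 ± 3.97 CPM (SD, n = 3). Ano3, better known from neurons and a dystonia gene, had no count in any EV library and 26, 29 and 85 in Sox4. Sox4 replicate 3 was well above the other two, and the Sox4 mean was at least 10.5-fold higher than the EV floor (adjusted p = 0.0013, edgeR). Without Sox4 replicate 3 it still passed the test, and over all 6 omissions of a library its adjusted p was at most 0.0034. Ano1, the calcium-activated chloride channel of secretory epithelia, had 0, 1 and 0 counts in EV and 11, 6 and 6 in Sox4, which was too few to test. The ratio of its counts per scaled library was 15.5 (95% exact interval 2.52 to 638, counting error only).

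**Figure D3:**
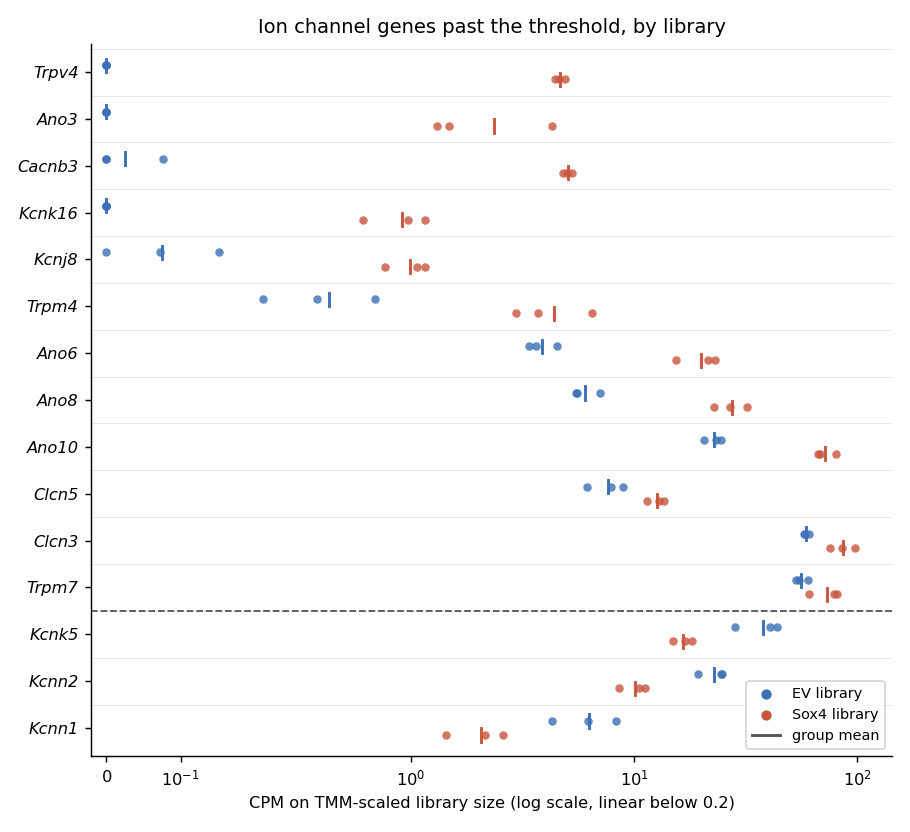
Level of 15 ion channel genes that passed the test, in CPM on a log axis that is linear below 0.2, with 1 point per library and a short bar at each group mean. Above the dashed line are 12 higher genes and below it 3 lower genes, and the Sox4 and EV points of Trpm7 touch at about 60.4 CPM.

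Among voltage-gated calcium channel genes, a beta subunit showed the clearest gain. Cacnb3, a cytoplasmic subunit that brings pore subunits to the membrane and can bind the inositol trisphosphate receptor, had 0, 1 and 0 counts in EV and 100, 103 and 95 in Sox4. The ratio of its counts per scaled library was 201 (95% exact interval 35.8 to 7955, counting error only), at 5.03 ± 0.224 CPM (SD, n = 3) in Sox4 (adjusted p = 8.2e-06, edgeR). All 3 Sox4 libraries were alike and far above the single count in EV. Cacnb1, a beta subunit best known from skeletal muscle, had 3, 9 and 8 counts in EV and 19, 25 and 12 in Sox4, with overlapping CPM, and did not pass (log2 fold change 0.91 ± 0.46 SE, adjusted p = 0.17, edgeR).

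Pore subunits of these channels stayed at low levels. Cacna1d, an L-type pore and the only tested member of 10, had 45, 43 and 84 counts in EV and 32, 66 and 54 in Sox4, with a log2 fold change of -0.74 (SE = 0.41, edgeR adjusted p = 0.11) and overlapping groups. Cacna1c, the L-type pore of heart and smooth muscle, had 0, 2 and 0 counts in EV and 6, 10 and 24 in Sox4, a ratio of 13.5 (95% exact interval 3.49 to 115). Cacna1b, the N-type pore of synapses, had 0, 0 and 3 counts in EV and 34, 8 and 44 in Sox4, a ratio of 19.3 (95% exact interval 6.39 to 95.5). Both fell under the expression filter, at mean levels of 0.676 CPM for Cacna1c and 1.45 CPM for Cacna1b in Sox4. Beside them, smooth muscle markers summed to 0.460 to 0.709 CPM and nerve markers to 1.89 to 2.79 CPM in Sox4, and the part of such cells was not tested.

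Sodium channel genes were mostly at low counts. Scn3b, a beta subunit of the single-pass kind that modifies gating and acts in cell adhesion, had 0, 0 and 0 counts in EV and 5, 14 and 6 in Sox4, at least 1.88-fold higher than the floor and untested. Scn8a, a pore of neurons and the only sodium channel pore that was tested, had 31, 14 and 21 counts in EV and 27, 31 and 21 in Sox4, and its groups overlapped. Its log2 fold change was -0.31 ± 0.35 (SE; adjusted p = 0.53, edgeR). No sodium channel pore gene passed the test, and 3 of the 10 had no count.

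Potassium channel genes moved in both directions. Of 92, 51 had a count and 9 were tested, of which 3 were higher and 4 lower, against 29.0% and 26.0% of all tested genes. Per length, the lower genes Kcnk5, Kcnn2 and Kcnn1 were at 11.1, 3.06 and 1.37 FPKM in EV, and the higher genes Kcnj8 and Kcnk16 were at 0.390 and 0.383 FPKM in Sox4. Kcnk5, an acid-sensitive background channel of the K2P class that is active in epithelia, had 369, 578 and 562 counts in EV and 361, 292 and 333 in Sox4. The ranges of CPM were 28.4 to 43.9 in EV and 14.9 to 18.1 in Sox4 and did not overlap, with a log2 fold change of -1.18 (SE = 0.21, edgeR adjusted p = 0.00032). Per length Kcnk5 was the leading ion channel gene in EV, at 11.1 ± 2.40 FPKM (SD, n = 3), and the seventh in Sox4, at 4.88 ± 0.471 FPKM. The EV range of 8.35 to 12.9 FPKM overlapped that of Clcn2, the second in EV.

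Kcnk16, a K2P channel opened by alkaline pH and known from pancreatic beta cells, went the other way. It had 0, 0 and 0 counts in EV and 23, 19 and 12 in Sox4, at least 4.04-fold higher than the EV floor (adjusted p = 0.0013, edgeR). In RefSeq, Kcnk5 and Kcnk16 lie on mouse chromosome 14 with 2 genes between them, neither of which codes for protein. The neighbours thus differed in opposite directions, from 37.7 to 16.6 CPM for Kcnk5 and from 0 to 0.910 CPM for Kcnk16.

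Both tested genes of the small-conductance calcium-activated class, which couple a rise in calcium to potassium efflux, were lower, against 26.0% of all tested genes. Kcnn2 had 318, 326 and 267 counts in EV and 209, 167 and 221 in Sox4, with a log2 fold change of -1.18 (SE = 0.16, edgeR adjusted p = 0.00022). Kcnn1 had 108, 82 and 59 counts in EV and 43, 28 and 51 in Sox4, with a log2 fold change of -1.60 (SE = 0.36, edgeR adjusted p = 0.0023). For each of them all Sox4 libraries were below all EV libraries, and 8.13% of the exon bases of Kcnn2 overlap antisense genes.

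Kcnt2, a sodium-activated channel, had 17, 25 and 303 counts in EV and 11, 22 and 9 in Sox4. EV replicate 3 stood far above the other EV libraries, and the fitted log2 fold change of -3.56 ± 1.29 (SE) did not pass (adjusted p = 0.060, edgeR). Without that library the log2 fold change was -1.18 (adjusted p = 0.098, edgeR). Kcnu1, a pH-gated channel known from sperm, had 0, 0 and 0 counts in EV and 11, 7 and 16 in Sox4, at least 2.54-fold higher than the floor and untested.

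Kcnj8, the inward rectifier pore of vascular ATP-sensitive potassium channels, had 0, 2 and 1 counts in EV and 23, 15 and 21 in Sox4. The ratio of counts was 13.2 (95% exact interval 4.32 to 66.1; adjusted p = 0.0019, edgeR), at 0.994 ± 0.202 CPM (SD, n = 3) in Sox4. Its partner Abcc9, the sulfonylurea receptor of the same channel and its direct neighbour on chromosome 6 in RefSeq, had 4, 3 and 12 counts in EV and 22, 39 and 73 in Sox4 (log2 fold change 2.24 ± 0.66 SE, adjusted p = 0.012, edgeR). Both genes are known from vascular mural cells. Stellate markers were also higher in Sox4, at 92.5 to 149 against 10.8 to 49.7 CPM, and smooth muscle markers were at most 0.709 CPM, and their part in these changes was not tested. Kcnh7, a voltage-gated channel, had 25, 17 and 42 counts in EV and 10, 36 and 39 in Sox4, with overlapping groups (log2 fold change -0.54 ± 0.66 SE, adjusted p = 0.40, edgeR).

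**Figure D4:**
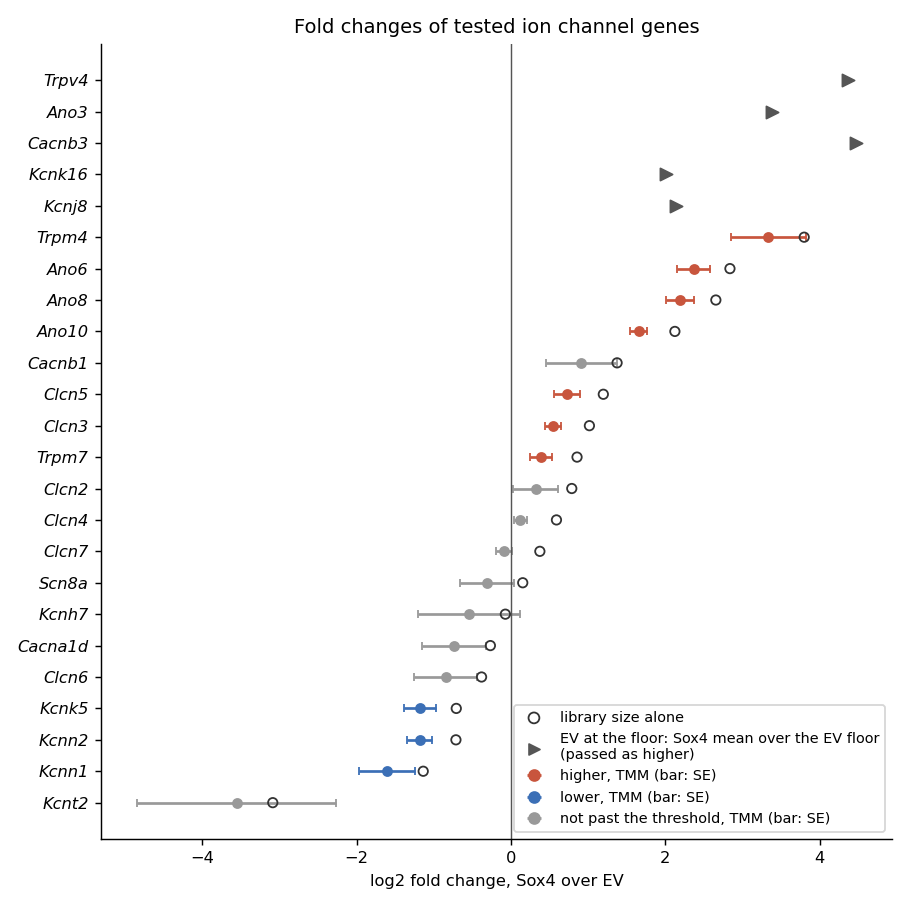
Log2 fold change, Sox4 over EV, of 24 tested ion channel genes, with filled points for TMM scaling and bars of 1 SE, open circles for total-count scaling, and triangles for the Sox4 mean over the EV floor where every EV library held 3 counts or fewer. Every open circle lies to the right of its filled point, and Clcn7 and Scn8a cross 0 between the scalings.

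CLC genes had the highest summed level of any family in both groups. Of 6 tested, 2 were higher, neither by 2-fold, against 29.0% of all tested genes that were higher. Clcn3, an endosomal chloride-proton exchanger, had 752, 769 and 833 counts in EV and 1509, 1665 and 1927 in Sox4, from 58.9 ± 1.36 to 86.1 ± 11.1 CPM (SD, n = 3), with a log2 fold change of 0.55 (SE = 0.11, edgeR adjusted p = 0.0033). Clcn5, the endosomal exchanger mutated in Dent disease, had 80, 117 and 108 counts in EV and 227, 267 and 254 in Sox4, with a log2 fold change of 0.73 (SE = 0.17, edgeR adjusted p = 0.0069). For Clcn3 and Clcn5 the groups did not overlap in CPM.

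The remaining CLC genes did not pass, and their CPM overlapped between groups. Clcn2, a plasma membrane chloride channel, had 748, 693 and 772 counts in EV and 1772, 1442 and 887 in Sox4. Sox4 replicate 3 lay below the EV libraries in CPM, at 44.9 against 52.6 to 57.6, while the other Sox4 libraries were at 88.8 and 73.7, for a log2 fold change of 0.32 (SE = 0.29, edgeR adjusted p = 0.24). Without that library Clcn2 passed, with a log2 fold change of 0.55. Clcn4, an intracellular exchanger, had a log2 fold change of 0.12 (SE = 0.08, edgeR adjusted p = 0.38), at 68.5 ± 1.81 CPM in EV and 74.4 ± 7.18 CPM in Sox4 (SD, n = 3). Of its exon bases, 11.5% overlap the antisense gene Gm45631. Clcn7, the lysosomal exchanger whose loss causes osteopetrosis, was at 44.9 ± 3.87 and 42.0 ± 3.88 CPM (SD, n = 3), with a log2 fold change of -0.10 (SE = 0.10, edgeR adjusted p = 0.51) that became 0.37 with total-count scaling, under which it passed as higher (adjusted p = 0.018, edgeR). Clcn6, a late endosomal member, had 121, 83 and 65 counts in EV and 97, 79 and 47 in Sox4 and lay just short of the threshold (log2 fold change -0.85 ± 0.41 SE, adjusted p = 0.051, edgeR).

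Compared per length, the order of the ion channel genes differed between the groups. In EV the highest 4 were Kcnk5 at 11.1 FPKM, Clcn2 at 9.21, Clcn7 at 8.49 and Clcn4 at 7.99, followed by Trpm7 at 4.95 and Ano10 at 3.86. In Sox4 they were Ano10 at 12.1 FPKM, Clcn2 at 11.5, Clcn4 at 8.68 and Clcn7 at 7.95, followed by Trpm7 at 6.48. Neighbours in each of these lists overlapped between libraries, apart from Clcn4 with Trpm7 and Trpm7 with Ano10 in EV, and Clcn7 with Trpm7 in Sox4. Trpv4 and Cacnb3, at or near 0 in EV, came to 1.14 and 1.25 FPKM in Sox4, close to Kcnn2, at 1.35 FPKM in Sox4 after 3.06 in EV.

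Channel families outside the symbol patterns were also counted, 73 genes with 37 tested, of which 11 were higher and 8 lower, against a background of 29.0% and 26.0%. Among volume-regulated anion channel subunits, Lrrc8b rose from 11, 8 and 11 counts in EV to 426, 535 and 546 in Sox4 (log2 fold change 5.07 ± 0.17 SE, adjusted p = 3.1e-07, edgeR). The obligate subunit Lrrc8a had a log2 fold change of 0.77 ± 0.16 (SE) and also passed (adjusted p = 0.0044, edgeR), while Lrrc8d, at 53.1 and 52.6 CPM, did not pass. Other genes overlap 68.3% of the exon bases of Lrrc8a, among them Gm28035 on the same strand, so its counts are uncertain. Pacc1, the proton-activated chloride channel, had 9, 37 and 15 counts in EV and 278, 249 and 240 in Sox4 (log2 fold change 3.07 ± 0.55 SE). Piezo1, a stretch-activated channel, had 29, 33 and 30 and then 218, 195 and 209 counts (log2 fold change 2.18 ± 0.07 SE). In Piezo1, 24.6% of the exon bases overlap the antisense gene Ctu2. Epithelial sodium channel gene Scnn1a fell from 560, 498 and 475 counts to 35, 32 and 14, a log2 fold change of -4.81 ± 0.39 (SE) with an adjusted p of 1.2e-06 (edgeR), and the bile acid-sensitive channel Asic5 fell by 2.06 (SE 0.18). Pkd2, Pkd2l2, Tpcn2, Tmem63b and Tmc6 were higher by 0.88 to 1.33 on the log2 scale, and P2rx3, Hcn3, Clic5, Tmem63a and Tpcn1 were lower. With total counts as library size these last 5 no longer passed, and Tpcn1 changed sign. In Hcn3, 17.1% of the exon bases overlap the antisense gene Pklr.

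Calcium handling genes did not move together. Orai2, a store-operated calcium channel pore, had 0, 0 and 2 counts in EV and 41, 31 and 50 in Sox4, a ratio of 41.1 (95% exact interval 11.1 to 343), whereas Orai3 fell by 1.09 on the log2 scale (SE 0.08) and Orai1 stayed at 12.9 and 12.8 CPM and did not pass. Stim1, the calcium sensor that opens Orai pores, was lower, with a log2 fold change of -0.89 ± 0.16 (SE) and an adjusted p of 0.00058 (edgeR). Itpr3, the inositol trisphosphate receptor typical of bile duct cells, had 1, 7 and 6 counts in EV and 64, 85 and 70 in Sox4 (log2 fold change 3.37 ± 0.55 SE), and the more abundant Itpr1 and Itpr2 did not pass. Of the plasma membrane calcium pumps, Atp2b4 rose from 5, 4 and 3 to 107, 119 and 134 counts (log2 fold change 4.30 ± 0.19 SE), Atp2b2 rose by 1.26 (SE 0.29) and Atp2b1 fell by 0.94 (SE 0.14).

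**Figure D5:**
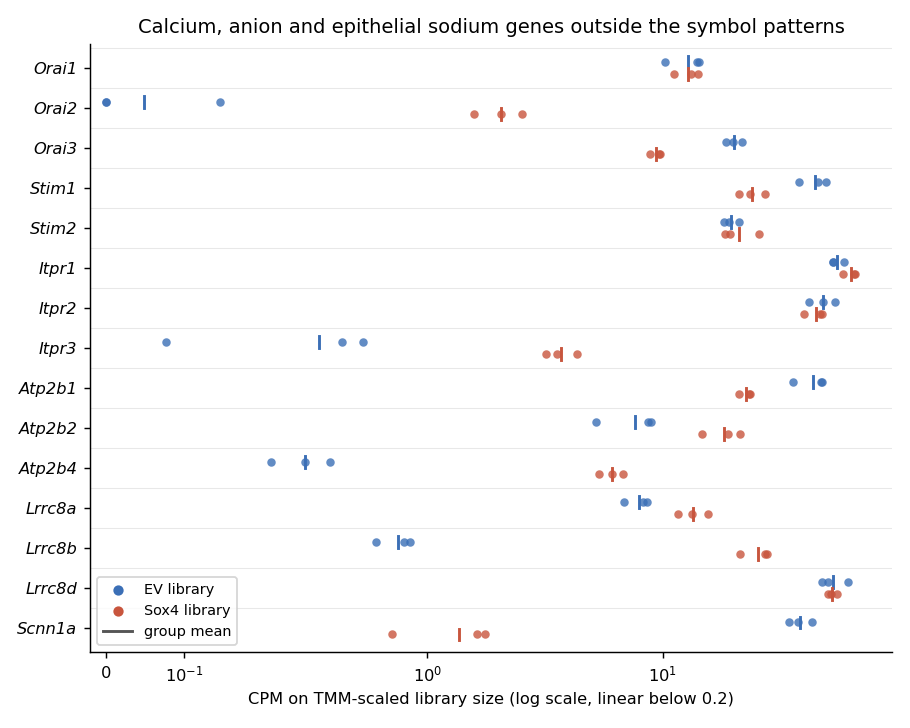
Level of 15 calcium, anion and epithelial sodium genes outside the symbol patterns, in CPM on a log axis that is linear below 0.2, with 1 point per library and a bar at each group mean. Orai2, Itpr3, Atp2b4 and Lrrc8b are low in EV and higher in every Sox4 library, Scnn1a is the reverse, and Orai1, Itpr2 and Lrrc8d overlap.

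Of 23 channel partners, 8 were tested, with 6 higher and 1 lower, against 29.0% and 26.0% of all tested genes. Besides Abcc9 and Stim1, they were Ostm1, the beta subunit of Clcn7, at a log2 difference of 0.71 ± 0.21 (SE; adjusted p = 0.0078, edgeR) while Clcn7 itself did not pass, the ankyrins Ank2 (1.97 ± 0.26 SE) and Ank3 (0.82 ± 0.06 SE), Stac3, and Unc79, with 2, 0 and 2 counts in EV and 14, 13 and 16 in Sox4. Of 19 sodium and calcium pumps and exchangers, 10 were tested, with 4 higher and 2 lower, against the same background. The sodium pump beta subunit gene Atp1b2 had 0, 1 and 1 counts in EV and 27, 12 and 25 in Sox4, a ratio of 21.6 (95% exact interval 5.73 to 182). Unc79 and Atp1b2 met the minimum count of the filter only in the Sox4 libraries, so they could hardly be called lower. The mitochondrial exchanger Slc8b1 was the other lower gene, by 0.77 on the log2 scale (SE 0.21), and no longer passed with total counts as library size (adjusted p = 0.15, edgeR).

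A list of 14 genes of bile duct ion and fluid secretion, 9 of them tested, held 4 higher genes and 1 lower gene, where 29.0% and 26.0% of all tested genes were called in those directions. Itpr3, Pkd2 and Trpv4 were higher, as was the water channel Aqp1, with 51, 68 and 112 counts in EV and 147, 300 and 322 in Sox4 (log2 fold change 1.17 ± 0.47 SE, adjusted p = 0.020, edgeR). Itpr3 and Trpv4 met the minimum count of the filter only in the Sox4 libraries, so they could hardly be called lower. Kcnn2 was the lower gene, and Clcn2, Slc4a2, Pkd1 and Pkhd1 did not pass. Aqp1 is also made by endothelial cells, whose markers summed to 26.1 to 43.1 in EV and 26.9 to 56.5 CPM in Sox4, and their part was not tested.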

How the data were processed

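RNA-seq of hepatocytes from 3 EV and 3 Sox4 mice was examined, with groups and replicate numbers taken from the sample titles. The authors aligned reads to GRCm39 with STAR 2.7.10b and counted them per gene with featureCounts 2.0.1 (versions per the submitters' processing notes), and the deposited values used here are raw counts. Annotation release, strand setting and handling of multi-mapping reads were not given in the sources used here. A deposited table normalized by median of ratios was not used here, since its header is shifted by a column against its values.

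Genes were kept with filterByExpr (minimum count 10, minimum total 15), leaving 12691, and tested in R 4.3.3 with edgeR 4.0.16 (TMM, robust quasi-likelihood F test, no covariate, Benjamini-Hochberg over all genes, threshold 0.05). The standard error is that of the difference of mean log2 CPM with a prior count of 2. DESeq2 1.42.0 and limma 3.58.1 served as alternatives. The floor was 3 counts per library; intervals of ratios are 95% Clopper-Pearson, and floors and intervals cover counting error only. The fit was tested on simulated data with known changes. These were few and drawn alike in both directions, so the simulation could not test the scaling between groups. No libraries of a group agreed within sampling noise. Exon lengths and overlaps are from GENCODE M21 (GRCm38), promoters and neighbours from RefSeq (GRCm38.p6), with no coordinates converted.

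Members follow fixed symbol patterns, and the members, gene lists, markers and tests were chosen with earlier results of these data known. Given in full were called genes whose groups did not overlap, along with genes that gained or lost expression, genes at 10 CPM or more in a group, genes nearest to the threshold, and called members of the lists. Some genes are counted in totals but not reported here.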

Additional observations from a re-analysis of the deposited data

How the results depend on the processing

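Total counts of 15090629 to 16964860 per library leave genes near 3 counts undecided, and 86 of the 113 ion channel genes with a count were not tested. The numbers of higher and lower genes kept within 1.5 times of 14 and 4 with DESeq2 size factors, total-count scaling (18 and 3), the DESeq2 test and limma-voom. Without the filter 113 genes were tested, with 24 higher and 5 lower. Called changes of at least 2-fold in either direction numbered 24, and the median log2 fold change was 1.70. With a mean count of at least 50, 17 genes were tested, with 7 higher and 5 lower. Called changes of at least 2-fold then numbered 9, and the median was 0.15. These settings change which genes are tested, but Clcn2 and Clcn6, tested throughout, also came to pass without the filter, for which the cause was not tested. Total-count scaling gave a median of 1.02. Leaving out a library also changed which genes passed the filter, with 29 to 37 ion channel genes tested against 27 in full. The values that follow therefore come from differing sets of genes. Leaving out each library gave 13 to 16 higher genes, 4 to 5 lower, 13 to 18 changed by 2-fold and a median of 0.55 to 1.32. Called genes among the other channel families, partners and pumps numbered 28 to 34 (32 in full). Over these omissions the number of gained genes was 11 to 18, the highest without Sox4 replicate 1. That of lost genes was 0 to 1, with Cacnb4 lost without Sox4 replicate 2. A floor of 1 count gave 13 gained genes, a floor of 10 counts gave 8, and a floor in CPM gave 10. With the floor in CPM 1 gene was lost, Cacng7, at 5, 9 and 5 counts in EV and 4, 3 and 4 in Sox4; these names were chosen after the values were seen. Clcn7 and Scn8a changed sign with total-count scaling, to 0.37 (then called higher) and 0.15, and Scn8a ranged from -0.56 to 0.025 over omissions of a library, positive without EV replicate 1; the cause was not tested. Of the remaining values for single genes, 315 kept direction and side of the threshold, 13 came to pass it and 10 no longer did. Same-numbered libraries had correlations of deviations of 0.27, -0.09 and 0.13. With 3 libraries per group, these values cannot decide whether same-numbered libraries were paired or handled together. The fit with the replicate number as a block called 14 ion channel genes higher and 5 lower, and 7362 genes in all against 6990. The alternatives for the other channel families, partners and pumps were added after seeing the data.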
